A study of Mus musculus with 13 samples.

Results

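The 29645 H3K27ac peaks mapped at day 13 of fibroblast reprogramming were compared between cells given the histone deacetylase mutant HDAC3-YF (14251 peaks) and cells given a FLAG control plasmid (15394 peaks). They were taken from 164043 peaks in 12 lists of the same study. A day 13 peak was called shared where it overlapped a peak of the other arm by at least 1 bp, and otherwise HDAC3-YF-only or FLAG-only. By this rule 5154 peaks were HDAC3-YF-only, 6297 were FLAG-only and 9097 in each list were shared.

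Both cultures were mouse embryonic fibroblasts (MEFs) of the strain C57BL/6J-OG2 that had been transduced with OSKM, a set of transgenes for OCT4, SOX2, KLF4 and c-MYC that drives reprogramming, and were presumed by their labels to be reprogramming intermediates. One culture also received HDAC3-YF, a form of HDAC3 without deacetylase activity, and the other received the FLAG plasmid; no loss of the cells' own Hdac3 is given in the labels. The comparisons below also draw on the HDAC3-YF and FLAG cultures of days 5 and 9, on NCoR and SMRT binding in OSKM cultures at day 9 and in embryonic stem cells (ESCs, strain C57BL/6J), and on H3K27ac in ESCs and in untreated MEFs of the OG2 strain. Each of these is 1 library, so no difference between conditions was tested, and all intervals below are 95% Wilson intervals over peaks or genes (Newcombe intervals for differences). They treat peaks as independent of each other and cover counting error alone, not how much cultures vary. The cultures were profiled in bulk, so fewer cells of a type and less acetylation per cell cannot be told apart.

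Acetylation of lysine 27 of histone H3 (H3K27ac) marks active promoters and enhancers and is removed by histone deacetylases. HDAC3 is the catalytic subunit of the co-repressor complexes built on NCoR and SMRT, which are brought to chromatin by nuclear receptors without ligand and by other transcription factors. During OSKM reprogramming, fibroblasts shut down mesenchymal genes, take up an epithelial programme and then switch on the pluripotency network, and H3K27ac moves from fibroblast to stem cell promoters and enhancers.

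The promoters that follow belong to genes named in the results. Those with HDAC3-YF-only starts were taken from pluripotency and epithelial gene lists alone, and those with FLAG-only starts from fibroblast gene lists alone. Starts of the opposite kind were therefore not printed. These were HDAC3-YF-only starts such as Twist2, Col5a1, Sparc and Flna, and the FLAG-only start of Trim71. They give the 250 bases before the annotated start, read 5′ to 3′ on the gene's own strand, from RefSeq in the build GRCm38.p6. Capitals mark matches to motifs searched on both strands: the E-box CACGTG, the AP-1 motif TGANTCA, the TATA box TATAAA, the CCAAT box (those letters) and the GC box GGGCGG. The letters of none of these contain another. Of 13537 RefSeq promoter windows (250 bases before to 50 after a start) that lie within 100 bp of a gene start in the gene table, 7.93% hold an E-box, 7.31% an AP-1 motif, 14.8% a TATA box, 40.6% a CCAAT box and 44.5% a GC box. A match describes the letters of the window and not a bound site. The first 4 genes had a peak within 1 kb of the start with HDAC3-YF and none with FLAG. Cldn4 and Cldn3 encode tight junction claudins, Utf1 a chromatin protein of pluripotent cells and Spint1 an inhibitor of epithelial serine proteases. Their promoters lie at chr5:134946935-134947184 (minus strand), chr7:139943606-139943855 (plus), chr2:119237110-119237359 (plus) and chr5:134985964-134986213 (plus), in the order printed.
Cldn4: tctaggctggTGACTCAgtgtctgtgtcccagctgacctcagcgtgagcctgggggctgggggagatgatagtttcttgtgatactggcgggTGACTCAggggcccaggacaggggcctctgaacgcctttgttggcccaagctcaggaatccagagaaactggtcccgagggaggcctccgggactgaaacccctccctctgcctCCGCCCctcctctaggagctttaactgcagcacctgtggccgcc
Utf1: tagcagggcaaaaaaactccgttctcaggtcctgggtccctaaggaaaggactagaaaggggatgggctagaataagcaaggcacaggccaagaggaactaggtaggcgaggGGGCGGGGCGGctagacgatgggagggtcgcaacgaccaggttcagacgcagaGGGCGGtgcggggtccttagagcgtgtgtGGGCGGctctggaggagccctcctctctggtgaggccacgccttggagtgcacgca
Spint1: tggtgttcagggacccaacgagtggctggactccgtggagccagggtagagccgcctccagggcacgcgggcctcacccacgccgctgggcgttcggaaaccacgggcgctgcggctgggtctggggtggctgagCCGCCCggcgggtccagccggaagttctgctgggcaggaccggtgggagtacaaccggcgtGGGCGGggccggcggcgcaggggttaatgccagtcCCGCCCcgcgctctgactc
Cldn3: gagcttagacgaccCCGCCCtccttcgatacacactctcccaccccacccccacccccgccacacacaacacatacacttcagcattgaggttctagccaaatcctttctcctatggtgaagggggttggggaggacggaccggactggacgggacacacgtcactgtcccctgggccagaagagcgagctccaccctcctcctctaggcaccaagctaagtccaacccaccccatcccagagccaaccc
The next 4 genes had a peak within 1 kb of the start with FLAG and none with HDAC3-YF. Col1a2 and Col6a2 encode chains of fibrillar and beaded-filament collagens, Myl9 a regulatory myosin light chain of contractile cells and Snai1 the Snail repressor of epithelial genes. Their promoters lie at chr6:4505368-4505617 (plus), chr10:76623631-76623880 (minus), chr2:156775214-156775463 (plus) and chr2:167537945-167538194 (plus).
Col1a2: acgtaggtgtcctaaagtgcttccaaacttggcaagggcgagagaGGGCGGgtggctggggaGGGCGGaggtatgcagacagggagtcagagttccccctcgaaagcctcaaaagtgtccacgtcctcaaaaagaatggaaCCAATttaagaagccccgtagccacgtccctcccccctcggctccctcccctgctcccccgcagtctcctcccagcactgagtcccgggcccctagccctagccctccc
Col6a2: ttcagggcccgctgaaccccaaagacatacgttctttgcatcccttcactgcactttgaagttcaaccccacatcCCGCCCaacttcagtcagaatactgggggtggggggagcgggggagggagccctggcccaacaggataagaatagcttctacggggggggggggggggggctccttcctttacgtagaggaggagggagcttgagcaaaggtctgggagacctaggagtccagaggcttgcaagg
Myl9: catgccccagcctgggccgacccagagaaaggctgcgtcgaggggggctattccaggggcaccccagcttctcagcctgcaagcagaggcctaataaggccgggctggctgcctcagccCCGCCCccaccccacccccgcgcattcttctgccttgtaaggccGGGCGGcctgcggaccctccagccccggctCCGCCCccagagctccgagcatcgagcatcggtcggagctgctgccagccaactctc
Snai1: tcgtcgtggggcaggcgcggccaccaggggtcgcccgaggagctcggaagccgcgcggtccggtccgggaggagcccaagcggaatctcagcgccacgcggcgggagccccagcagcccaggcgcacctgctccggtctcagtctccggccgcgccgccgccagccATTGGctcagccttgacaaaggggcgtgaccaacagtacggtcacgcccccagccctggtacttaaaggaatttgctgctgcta

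The day 13 peaks at these starts stood well apart from the other arm's. At Cldn4 the HDAC3-YF peak had a score of 26.4, lay 675 bp downstream of the start (chr5:134946160-134946359) and was 13651 bp from the nearest FLAG peak. At Utf1 the score was 22.8, the centre lay 638 bp downstream and the nearest FLAG peak was 92097 bp away. The peaks of Spint1 and Cldn3 scored 19.3 and 16.9, at 352 and 295 bp downstream, with the nearest FLAG peaks 62866 and 22899 bp away. ESCs had a peak at an end of all 4 of these genes and MEFs at none. Among other pluripotency genes with an HDAC3-YF-only start, ESCs had an end peak at Gbx2 and Tet2 and none at Tdgf1 and Lin28a. On the FLAG side, Col1a2 had a peak of score 20.3 centred 148 bp downstream of its start, and the nearest HDAC3-YF peak was 95398 bp away. Col6a2 had a peak of score 16.7 at 460 bp downstream and 91648 bp from an HDAC3-YF peak. The peaks of Myl9 and Snai1 scored 10.7 and 10.5, at 62 bp upstream and 451 bp downstream, 44684 and 5666 bp from the nearest HDAC3-YF peaks. MEFs had a peak at an end of all 4 genes, and ESCs at an end of Myl9 alone.

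How deeply each library was sequenced is unknown. Every deposited interval is 200 bp wide, so peak width carries no information. The score deposited with each peak runs from 6.72 (HDAC3-YF) and 6.68 (FLAG) to a ceiling of 200 and has no stated scale; it is the authors' value and was used only to rank and describe peaks within a list. By the peak counts of marker genes both day 13 cultures lay between MEFs and ESCs, with the FLAG culture close to MEFs for pluripotency and epithelial markers. Of 10 pluripotency markers, 8 had a peak in the gene body or within 20 kb with HDAC3-YF (10 peaks) and 4 with FLAG (4 peaks), against 10 in ESCs (54 peaks) and 3 in MEFs (3 peaks). Zfp42 and Tfcp2l1 had none with HDAC3-YF, and Esrrb, Zfp42, Tfcp2l1, Dppa5a, Utf1 and Tdgf1 had none with FLAG. Of 10 fibroblast markers, 6 had a peak with HDAC3-YF (6 peaks) and 7 with FLAG (9 peaks), against 10 in MEFs (41 peaks) and 4 in ESCs (4 peaks). Col3a1, Pdgfrb and Postn had no peak in either arm, and Col1a2 had none with HDAC3-YF. Of 6 epithelial markers, 6 had a peak with HDAC3-YF (16 peaks) and 5 with FLAG (11 peaks), Krt18 having none with FLAG. ESCs had a peak at 5 of them (23 peaks) and MEFs at 5 (10 peaks).

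By an overlap of at least 1 bp most peaks of each day 13 list were shared, and the unshared peaks were mostly low-scoring. Shared peaks made up 63.8% of the HDAC3-YF list (63.0 to 64.6) and 59.1% of the FLAG list (58.3 to 59.9), with 105 intervals identical in both. Where sharing required an overlap of 50% of the interval, the shares were 46.5% and 43.1%. Between days within an arm, 59.6% of day 13 HDAC3-YF peaks overlapped a day 9 HDAC3-YF peak and 63.1% of day 13 FLAG peaks overlapped a day 9 FLAG peak. The median score was 9.25 for HDAC3-YF-only peaks, 9.58 for FLAG-only peaks, and 27.1 and 26.5 for shared peaks in the HDAC3-YF and FLAG lists. Only 2 HDAC3-YF-only and 1 FLAG-only peaks reached the ceiling of 200, against 298 and 256 shared peaks. From the lowest to the highest score quartile (4 groups of equal size) of its own list, the HDAC3-YF-only share was 72.9, 47.2, 18.6 and 5.92%. The FLAG-only share was 76.9, 55.1, 24.3 and 7.38% in the same order. Many unshared peaks had a neighbour in the other list: 31.2% of HDAC3-YF-only peaks (29.9 to 32.5) and 25.2% of FLAG-only peaks (24.1 to 26.3) had a peak of the other arm centred within 1 kb. That left 3546 HDAC3-YF-only and 4710 FLAG-only peaks with no counterpart within 1 kb.

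HDAC3-YF-only peaks lay at gene ends more often than FLAG-only peaks, and less often far from genes. Of the HDAC3-YF-only peaks 38.6% (37.3 to 39.9, 1990 peaks) were centred within 1 kb of either annotated end of a gene that encodes protein, against 27.01% (25.9 to 28.1, 1701 peaks) of the FLAG-only peaks. The difference was 11.6 percentage points (9.87 to 13.3), and 20.6 in the 50% of peaks with the highest scores. For that setting, here and below, both lists were cut to their higher-scoring 50% and sharing was called anew. An unshared peak there can therefore have a lower-scoring counterpart in the full list of the other arm. In the full lists shared peaks stood above both unshared classes, at 72.2%. Peaks inside genes and over 1 kb from an end made up 42.1% of HDAC3-YF-only and 45.2% of FLAG-only peaks. Peaks outside genes and over 1 kb from an end made up 19.3% and 27.8%, a difference of -8.51 points (-10.0 to -6.95). Peaks over 50 kb from any gene end made up 10.1% of HDAC3-YF-only peaks and 16.7% of FLAG-only peaks. Of the 21887 genes, 17492 had a known strand, which allowed starts and 3′ ends to be separated. A gene start lay within 1 kb of 29.0% of HDAC3-YF-only peaks and 19.9% of FLAG-only peaks, and a 3′ end of 3.55% and 2.43%. The difference in percentage points was larger at starts, where far more peaks of both classes lay. In proportion to these shares it was of like size at both. Within 1 kb of a start, 83.6% of HDAC3-YF-only and 80.8% of FLAG-only peaks were centred downstream of it, as were 86.8% of shared peaks. Their median positions were 253, 262 and 233 bp downstream.

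**Figure D1:**
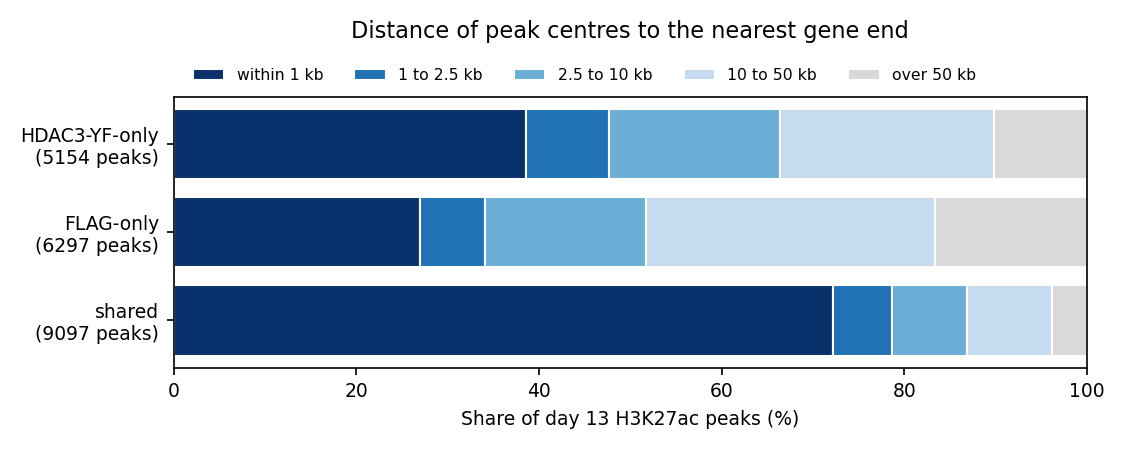
Distance from peak centres to the closest end of any protein-coding gene, as a share of peaks (x axis, percent), for HDAC3-YF-only, FLAG-only and shared day 13 H3K27ac peaks (rows; shared peaks of the HDAC3-YF list). The darkest segment, within 1 kb, covers 38.6% of HDAC3-YF-only, 27.01% of FLAG-only and 72.2% of shared peaks, and the palest blue and grey segments beyond 10 kb are widest for FLAG-only peaks.

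The gene-end difference was present at every score level. In the lowest score quartile 25.5% of HDAC3-YF-only peaks and 17.8% of FLAG-only peaks lay at gene ends. In the highest quartile the shares were 81.5% and 65.5%. The plot of arm-only peaks by score shows that the unshared share of both lists declined with score while the gene-end share of the unshared peaks increased. At day 9 the same gene-end shares were 26.0% for HDAC3-YF-only and 24.4% for FLAG-only peaks (difference 1.58 points, -0.0449 to 3.22). At day 5 they were 18.8% and 28.5%, the opposite order.

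**Figure D2:**
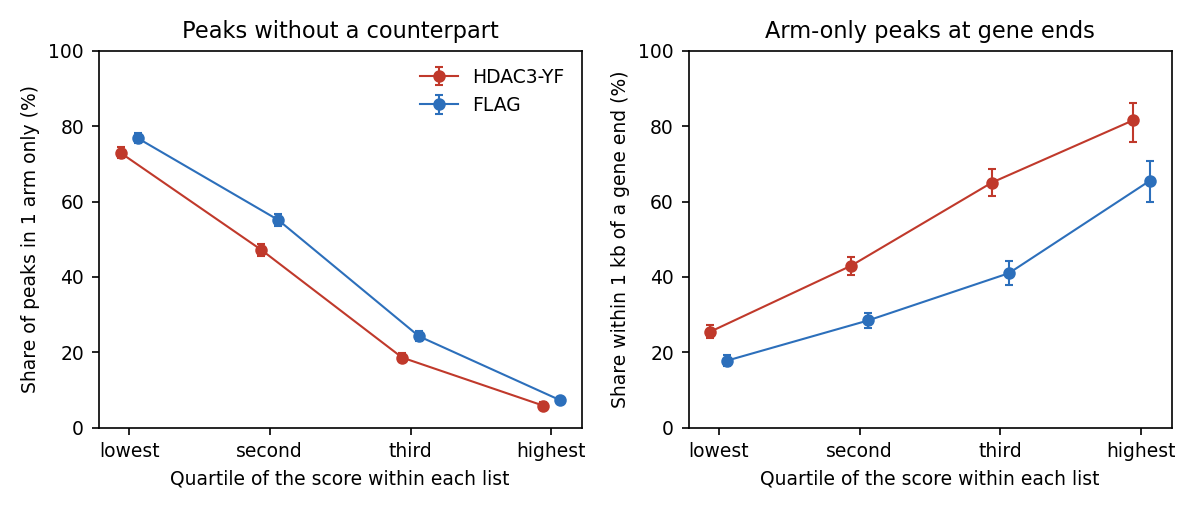
Left, share of each day 13 list without a counterpart in the other arm (y axis, percent) by quartile of the deposited score within that list (x axis); right, share of those unshared peaks within 1 kb of a gene end. Points are HDAC3-YF (red) and FLAG (blue) with 95% Wilson intervals; in the highest quartile 5.92% and 7.38% were unshared, and 81.5% and 65.5% of the unshared lay at gene ends.

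HDAC3-YF-only peaks were more often sites acetylated in ESCs, and FLAG-only peaks more often sites acetylated in MEFs but not in ESCs. An ESC peak overlapped 36.7% (35.4 to 38.0) of HDAC3-YF-only peaks and 21.4% (20.4 to 22.5) of FLAG-only peaks, a difference of 15.3 points (13.6 to 16.9). It was 29.1 in the 50% of peaks with the highest scores, where sharing was called anew between the cut lists. A MEF peak overlapped 30.5% (29.2 to 31.8) and 34.6% (33.4 to 35.8), a difference of -4.11 points (-5.82 to -2.38) that turned to 1.17 when sharing required an overlap of 50% of the interval and to 10.2 in the higher-scoring 50%, and was -13.9 when peaks centred within 1 kb counted as shared. Sites with an ESC peak and no MEF peak made up 17.5% of HDAC3-YF-only and 8.77% of FLAG-only peaks, a difference of 8.70 points (7.45 to 9.95) that was 5.53 in the higher-scoring 50%. Sites with a MEF peak and no ESC peak made up 11.3% and 21.9%, a difference of -10.7 points (-12.0 to -9.32) that was -3.63 with an overlap of 50% and -19.7 with centres within 1 kb. Shared peaks were 8.81% ESC-only and 12.1% MEF-only sites, and 69.7% had both. Most unshared peaks, 52.1% of HDAC3-YF-only and 56.6% of FLAG-only, had neither.

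The contrast was present both at gene ends and away from them. At gene ends, ESC-only sites were 21.0% of HDAC3-YF-only and 11.7% of FLAG-only peaks, and MEF-only sites 12.9% and 21.3%. Away from gene ends, ESC-only sites were 15.2% of HDAC3-YF-only and 7.68% of FLAG-only peaks, and MEF-only sites 10.2% and 22.1% (difference -11.9 points, -13.5 to -10.3). At day 9 an ESC peak overlapped 27.3% of HDAC3-YF-only and 21.8% of FLAG-only peaks, and a MEF peak 28.7% and 35.4%. At day 5 both overlaps were lower on the HDAC3-YF side, with 18.3% and 26.9% for ESC peaks and 22.9% and 33.2% for MEF peaks.

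**Figure D3:**
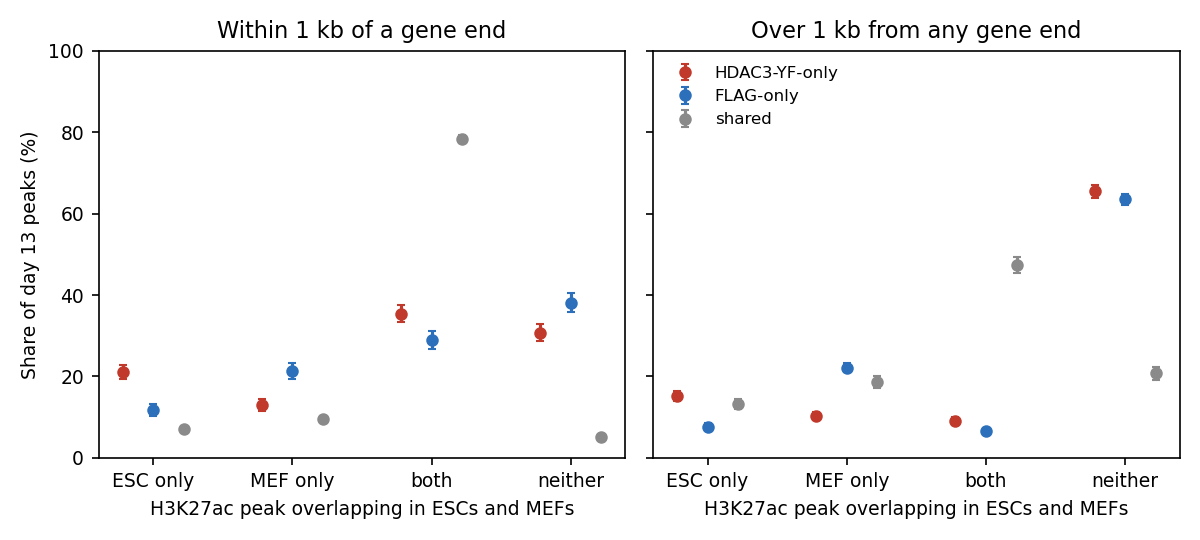
Share of day 13 peaks (y axis, percent) that overlapped an H3K27ac peak of ESCs only, MEFs only, both or neither (x axis), for peaks within 1 kb of a gene end (left) and over 1 kb from any gene end (right). Points are HDAC3-YF-only (red), FLAG-only (blue) and shared (grey) peaks with 95% Wilson intervals; red lies above blue for ESC-only sites (21.0% and 11.7% at gene ends, 15.2% and 7.68% elsewhere) and below it for MEF-only sites.

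By an overlap of at least 1 bp, FLAG-only peaks more often than HDAC3-YF-only peaks lay where a peak had been found on earlier days. A peak of either arm at day 5 or day 9 overlapped 42.5% (41.2 to 43.9) of HDAC3-YF-only and 52.9% (51.6 to 54.1) of FLAG-only peaks, against 93.3% of shared peaks. The day 9 FLAG list overlapped 26.1% of HDAC3-YF-only and 34.1% of FLAG-only peaks, a difference of -7.95 points (-9.62 to -6.27) that was 2.41 in the 50% of peaks with the highest scores, -1.54 with an overlap of 50% and -21.4 with centres within 1 kb. The day 9 HDAC3-YF list overlapped 25.8% and 26.6%, a difference of -0.756 points whose interval, -2.37 to 0.866, includes 0. Its sign depended on the setting: it was 9.80 (6.77 to 12.8) in the higher-scoring 50% and 3.71 (2.40 to 5.03) with an overlap of 50%, but -2.73 (-4.43 to -1.03) with lists of equal length and -10.4 (-12.3 to -8.39) with centres within 1 kb. Peaks found in no day 5, day 9, ESC or MEF list made up 40.8% (39.5 to 42.2) of HDAC3-YF-only, 34.7% (33.5 to 35.9) of FLAG-only and 3.01% of shared peaks.

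Few unshared peaks lay at NCoR or SMRT binding sites. A day 9 NCoR or SMRT peak overlapped 5.72% (295) of HDAC3-YF-only and 4.21% (265) of FLAG-only peaks, and 28.7% of shared peaks; the difference between the unshared classes was 1.52 points (0.717 to 2.33), and 8.75 (6.39 to 11.2) in the 50% of peaks with the highest scores. At gene ends the shares were 10.8% and 10.99% (difference -0.240 points, -2.27 to 1.77), and away from gene ends 2.56% and 1.70%. An ESC NCoR or SMRT peak overlapped 6.29% of HDAC3-YF-only and 3.03% of FLAG-only peaks, a difference of 3.25 points (2.48 to 4.05) that was 8.10 in the higher-scoring 50%, 5.97 with centres within 1 kb and 1.72 with an overlap of 50%. At gene ends these shares were 11.1% and 7.23%, and elsewhere 3.26% and 1.48%. Shared peaks again stood above both, at 16.3%.

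At the level of genes, peaks were counted over each gene body extended by 20 kb at both ends. Of 21887 protein-coding genes, 582 (2.66%) had at least 2 more peaks with HDAC3-YF and 774 (3.54%) at least 2 fewer. At a difference of 1 or more the counts were 3377 (15.4%) and 3582 (16.4%), and 14928 genes did not differ. Only 14698 genes had a day 13 peak of either arm in the locus, and 7739 of these had equal counts. Genes without a peak cannot differ, so shares over all genes lie below those among genes with peaks. This also holds where gene lists are set against all genes below. With the 14251 highest-scoring peaks of each list the balance was the opposite, with 711 genes higher and 555 lower by 2 or more. With flanks of 5 kb 274 were higher and 429 lower, and in the 50% of peaks with the highest scores 125 and 288. Day 9 to day 13 changes within an arm were of like number, with 613 genes higher and 894 lower at day 13 with HDAC3-YF and 434 and 782 with FLAG. Of the 582 genes with more peaks, 286 (49.1%) had an ESC count above the MEF count and 148 (25.4%) the reverse. Of the 774 genes with fewer peaks, 424 (54.8%) had a MEF count above the ESC count and 205 (26.5%) the reverse. Over all genes 27.7% had more peaks in ESCs and 22.7% more in MEFs. Genes with fewer peaks were also longer, with a median length of 38.4 kb, against 22.6 kb for those with more peaks and 17.2 kb for all genes; the part of gene length in these counts was not tested. At day 9 the difference had the same sign at 129 of the 582 genes and at 357 of the 774, and the opposite sign at 157 and 135.

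The loci with the most added peaks mixed genes of unlike function. Ppard, the nuclear receptor PPARδ (chr17:28232754-28301469), had 8 peaks with HDAC3-YF and 3 with FLAG at day 13, against 3 in ESCs and 8 in MEFs. Niban2 had 8 and 3. Igdcc4, an immunoglobulin superfamily membrane protein (chr9:65101023-65137947), had 5 peaks with HDAC3-YF and 0 with FLAG, and 4 in ESCs and 1 in MEFs. The glycosyltransferase gene B4galnt3 (chr6:120200753-120294917) had 6 and 2, with 10 in ESCs and 1 in MEFs. Slc2a1, the glucose transporter GLUT1, had 5 and 1, and Sufu, an inhibitor of Hedgehog signalling, 6 and 2. Others of the 12 were Dnah2 (7 and 2), the cytoskeletal linker plectin (Plec, 8 and 4), tau (Mapt, 6 and 2), Thada, Creld1 (6 and 2 each) and Mllt6 (7 and 3). Like Ppard, Niban2 (9 in MEFs, 4 in ESCs), Sufu (11 and 4), Plec (9 and 3) and Thada (9 and 7) had more peaks in MEFs. Slc2a1 had equal counts, and the rest of the 12 had more in ESCs. At day 9 HDAC3-YF exceeded FLAG at Igdcc4 (3 and 1), Ppard (4 and 3), Slc2a1 (3 and 2) and Creld1 (5 and 3), was equal at Mapt, B4galnt3, Sufu and Mllt6, and was lower at Niban2 (4 and 10), Dnah2, Plec and Thada.

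The loci with the most missing peaks had larger differences. Zbtb7c, a zinc finger gene (chr18:75820178-76148564), had 4 peaks with HDAC3-YF and 14 with FLAG. Fam53b had 5 and 13, and Arhgef10l 3 and 11. Aopep (chr13:62964893-63326096) had 5 and 12, with 25 in MEFs and 9 in ESCs. Myoferlin (Myof), which acts in membrane repair and fusion, had 1 and 8. T-cadherin (Cdh13) had 4 and 10, the Notch co-activator gene Maml3 3 and 9 (1 in ESCs, 10 in MEFs), and the calcium-activated chloride channel gene Ano1 3 and 9 (1 in ESCs, 7 in MEFs). Shroom3, an actin-binding regulator of apical constriction, had 5 and 12. Syn3, Nek6 and Cubn had 1 and 7 each. The locus of Syn3 contains the gene Timp3, so both share peaks. ESCs had more peaks than MEFs at Fam53b (9 and 4), Shroom3 (7 and 4) and Nek6 (4 and 3), and MEFs had more at the rest of the 12 loci. At day 9 HDAC3-YF was lower than FLAG at 9 of these 12 loci, Fam53b (8 and 7), Shroom3 (9 and 8) and Cubn (6 and 5) being the exceptions, as the map of peak counts by library shows.

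**Figure D4:**
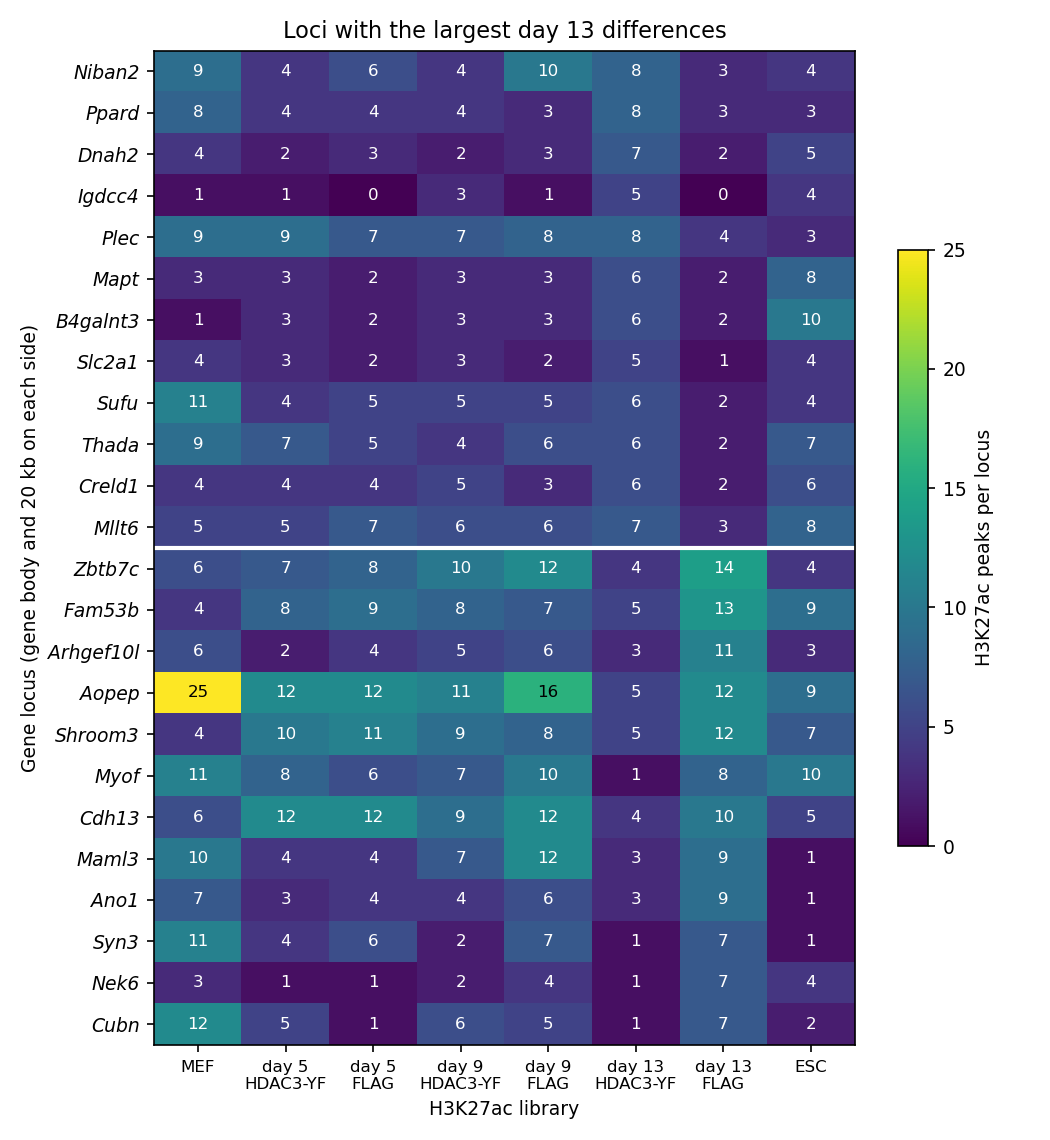
H3K27ac peaks per gene body extended by 20 kb at both ends (number printed in each cell and shown by colour) for the 12 loci with most peaks added (upper block) and the 12 with most missing (lower block) with HDAC3-YF at day 13, by library (x axis). Igdcc4 had 5 peaks with HDAC3-YF and 0 with FLAG, and Zbtb7c 4 and 14; the loci were chosen for these day 13 values.

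At gene ends, 1213 genes (5.54%) had a peak within 1 kb with HDAC3-YF only, 911 (4.16%) with FLAG only, 8404 in both arms and 11359 in neither. Of the 1213, 22.8% (20.6 to 25.3, 277 genes) had an end peak in ESCs and not in MEFs and 10.2% (8.64 to 12.1, 124 genes) in MEFs and not in ESCs. Of the 911, 8.45% (6.82 to 10.4, 77 genes) had an end peak in ESCs only and 23.5% (20.9 to 26.4, 214 genes) in MEFs only. End peaks in both cell types were found at 46.3% and 49.3% of these genes and at 92.9% of the genes acetylated in both arms. Among the genes with a strand, 912 starts were acetylated with HDAC3-YF only, 657 with FLAG only and 6680 in both.

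Pluripotency genes had more peaks with HDAC3-YF than with FLAG. Of 14 naive pluripotency transcription factors 4 were higher and 2 lower, and of 20 pluripotency effectors 9 were higher and 1 lower, against 15.4% and 16.4% of all genes. Their summed peaks were 10 with HDAC3-YF and 7 with FLAG for the factors, and 30 and 21 for the effectors, far below the 68 and 99 of ESCs; MEFs had 8 and 23. In the 50% of peaks with the highest scores 7 of these genes were higher and 1 lower, against 1921 and 2352 of all 21887 genes. The median difference of both lists was 0, as over all genes, and their mean differences were 0.214 and 0.450 peaks, against -0.0268 over all genes. Esrrb, a nuclear receptor of the naive network, had 1 peak with HDAC3-YF and 0 with FLAG. Sall4 had 2 and 1, and Klf2 (1 and 2) and Nr5a2 (0 and 1) were lower. Among effectors Utf1 had 2 and 0, the germline and stem cell gene Dppa5a 1 and 0, Otx2 1 and 0, and the Polycomb partner Jarid2 4 and 3. The DNA demethylase gene Tet1 had 3 and 4.

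At gene ends 6 of the 34 pluripotency genes were acetylated with HDAC3-YF only and 1 with FLAG only, against 5.54% and 4.16% of all genes. Gbx2 had an end peak of score 9.97, 52894 bp from any FLAG peak, and ESCs had a peak at its ends. Tdgf1 (score 8.98, a co-receptor of Nodal), Lefty1 (8.01, a Nodal antagonist) and Lin28a (6.96, an inhibitor of let-7 maturation) had end peaks near the lowest score of the list, and ESCs and MEFs had no peak within 1 kb of their ends. Tet2 (score 21.8, a DNA demethylase) had a FLAG peak 368 bp from its HDAC3-YF peak, and Trim71, the FLAG-only gene, an HDAC3-YF peak 50 bp away. These last cases lie at the edge of the 1 kb window.

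Epithelial genes were also more often higher than lower. Of 18 junction and keratin genes 9 were higher and 3 lower (42 peaks with HDAC3-YF, 37 with FLAG), and of 12 regulators and sorting genes 5 were higher and 2 lower (19 and 18). Both lists together had 14 genes higher and 5 lower, against 15.4% and 16.4% of all genes. In the 50% of peaks with the highest scores 13 were higher and 2 lower, against 1921 and 2352 of all 21887 genes. The mean differences were 0.278 and 0.0833 peaks. Cldn4 had 3 peaks with HDAC3-YF and 1 with FLAG, Cldn3 had 2 and 0, E-cadherin (Cdh1) 4 and 3 and plakoglobin (Jup) 5 and 4. The tight junction scaffold gene Tjp1 had 2 and 5 and the desmosomal gene Pkp3 3 and 5. Of the regulators, Spint1 had 1 and 0 and Grhl2, a transcription factor of epithelia, 2 and 1, whereas the sorting adaptor gene Ap1m2 had 1 and 4. Gene ends were acetylated with HDAC3-YF only at Cldn3, Cldn4, Krt19, Ovol1 and Spint1, and with FLAG only at none of the 30 genes. The shares over all genes were 5.54% and 4.16%. The end peaks of Krt19 (score 10.3) and Ovol1 (8.22) lay 24255 and 7282 bp from the nearest FLAG peak, and neither gene had an end peak in ESCs or MEFs.

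Fibroblast genes had fewer peaks with HDAC3-YF. Of 15 mesenchymal transcription factors 2 were higher and 7 lower (15 peaks with HDAC3-YF, 22 with FLAG, 56 in MEFs). Of 22 matrix and receptor genes 1 was higher and 6 lower (15 and 23 peaks, 81 in MEFs), and of 14 actin and contractile genes 2 were higher and 9 lower (28 and 39, 64 in MEFs). Over the 3 lists 5 genes were higher and 22 lower, against 15.4% and 16.4% of all genes, which include genes without any day 13 peak. In the 50% of peaks with the highest scores 4 were higher and 14 lower, against 1921 and 2352 of all 21887 genes. The medians were 0, 0 and -1 and the means -0.467, -0.364 and -0.786 peaks. Twist1, a driver of the mesenchymal state, had 1 peak with HDAC3-YF and 3 with FLAG, and the homeobox gene Prrx2 had 2 and 4; Twist2 (1 and 0) and Foxc2 (2 and 1) were higher. Timp3, an inhibitor of metalloproteinases, had 0 and 3 and the collagen gene Col5a1 1 and 3. Vimentin (Vim) had 1 and 3, vinculin (Vcl) 2 and 4, non-muscle myosin (Myh9) 5 and 7 and calponin 2 (Cnn2) 2 and 4.

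Ends of these genes were acetylated with HDAC3-YF only at 5 of the 51 genes and with FLAG only at 9. Against this stood 5.54% and 4.16% of all genes, and 0 and 2 (Gapdh and Tbp) of the 10 housekeeping genes. The FLAG-only set among the 51 genes was Snai1, Snai2, Prrx2, Osr1, Col1a1, Col1a2, Col6a2, Tpm1 and Myl9. Snai2, the Slug repressor of epithelial genes, had an end peak of score 7.67, 343971 bp from any HDAC3-YF peak, and Osr1 one of score 10.1, 344524 bp away. Tpm1 had an HDAC3-YF peak 100 bp away and so lies at the edge of the window. The HDAC3-YF-only set was Twist2, Foxc1, Col5a1, Sparc and Flna, of which Foxc1 had a FLAG peak 61 bp away. MEFs had end peaks at 4 of the 5 HDAC3-YF-only genes (Sparc being the exception) and at all 9 FLAG-only genes.

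**Figure D5:**
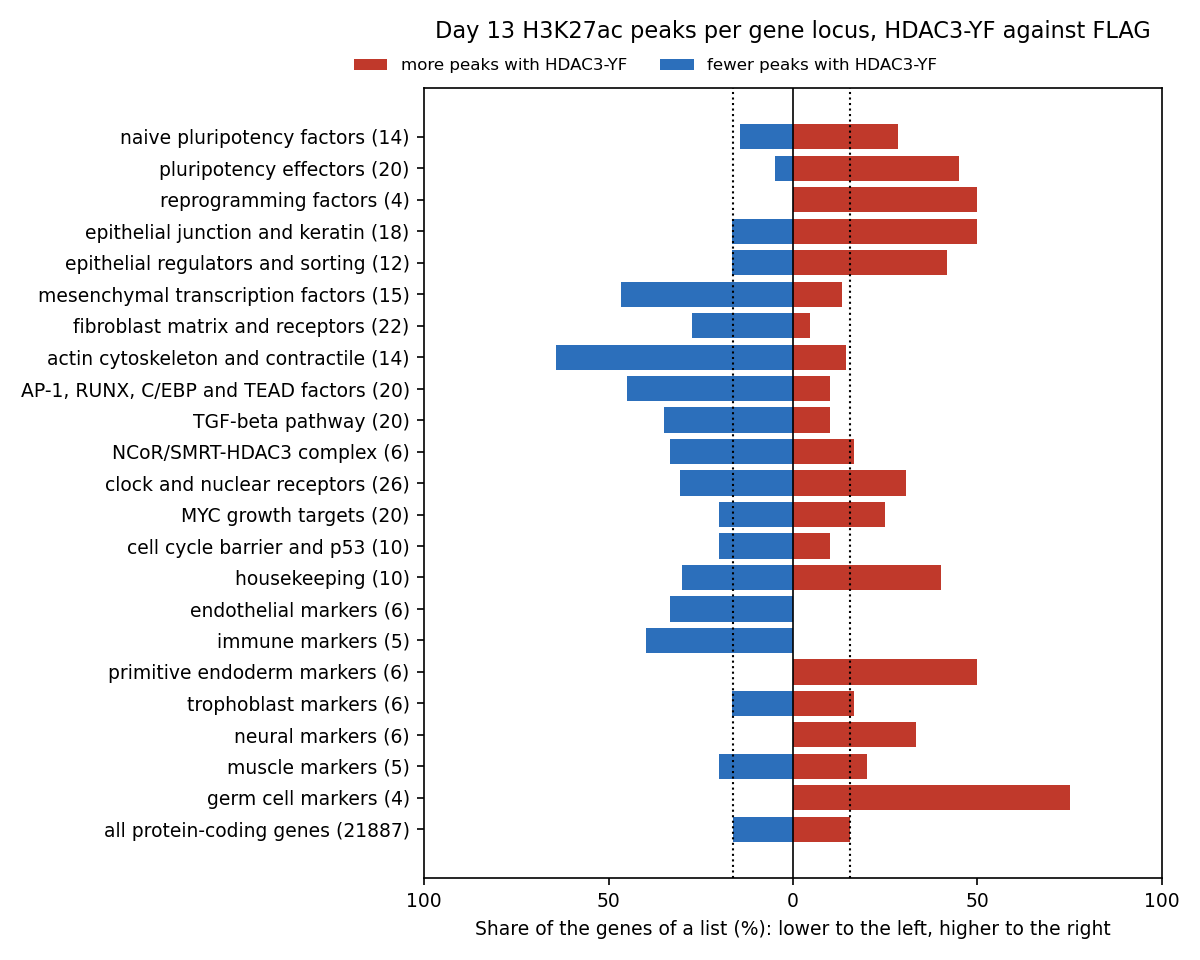
Share of the genes of each list (x axis, percent; number of genes in parentheses) with more day 13 H3K27ac peaks with HDAC3-YF than with FLAG (red, to the right) or fewer (blue, to the left), counted over gene bodies extended by 20 kb at both ends. Dotted lines mark the shares over all protein-coding genes, 15.4% higher and 16.4% lower, including genes without any day 13 peak. Pluripotency and epithelial lists extend further to the right, and mesenchymal, matrix, actin, AP-1 and TGF-β lists to the left.

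A list of transcription factors (69 peaks in ESCs, 110 in MEFs) and a list of signalling genes (40 in ESCs, 118 in MEFs) followed the same direction. Of 20 AP-1, RUNX, C/EBP and TEAD factors and co-activators 2 were higher and 9 lower (52 and 65 peaks, mean difference -0.650). Of 20 TGF-β pathway genes 2 were higher and 7 lower (37 and 44, mean -0.350). The shares over all genes were 15.4% higher and 16.4% lower. The nuclear factor I gene Nfix had 5 peaks with HDAC3-YF and 10 with FLAG, the Hippo co-activator gene Yap1 1 and 4, and Runx1 4 and 6. Nfix (6 in ESCs, 14 in MEFs) and Runx1 (1 and 12) had more peaks in MEFs. Yap1 had more in ESCs (6 in ESCs, 3 in MEFs), as did Tead4 (8 and 3), which had 1 peak with HDAC3-YF and 2 with FLAG. Fosb, a subunit of AP-1, was higher with 5 and 3. The ligand gene Tgfb3 had 0 and 3 and Ltbp1, which anchors latent TGF-β in the matrix, 1 and 3, while the inhibitory Smad7 had 3 and 1. With both lists cut to their 14251 highest-scoring peaks, the TGF-β list stood at 3 higher and 4 lower, against 3817 and 2903 of all 21887 genes. Ends were acetylated with FLAG only at Cebpa, Tgfb3, Smad6 and Thbs1 and with HDAC3-YF only at Ltbp2, against 4.16% and 5.54% of all genes. An HDAC3-YF peak lay 400 bp from the end peak of Smad6 and 934 bp from that of Thbs1, so these calls depend on the 1 kb window. The end peaks of Smad6 (score 7.17), Tgfb3 (7.5) and Cebpa (8.05) were near the lowest score of the list.

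The co-repressor complex, its partners and MYC targets showed no such direction. Of 6 complex genes 1 was higher and 2 lower, against 15.4% and 16.4% of all genes. Ncor1 had 1 peak with HDAC3-YF and 2 with FLAG, and Gps2 4 and 3. Hdac3 had 3 and 3, with an end peak in FLAG (score 19.7) and none with HDAC3-YF within 1 kb. Of 26 clock and nuclear receptor genes 8 were higher and 8 lower, Ppard (8 and 3) and the retinoic acid receptor gene Rara (6 and 4) among the higher and the clock genes Per1 (3 and 5) and Rora (3 and 5) among the lower. Of 20 MYC growth targets 5 were higher and 4 lower, with the nucleolar genes Nop2 (5 and 2) and Nolc1 (3 and 1) higher and Fbl (2 and 4) lower. In the 50% of peaks with the highest scores 0 of these targets were higher and 6 lower. The clock and receptor genes then stood at 4 and 9, and all 21887 genes at 1921 and 2352. Of 10 cell cycle barrier genes 1 was higher (Trp53, 4 and 2) and 2 lower, and of 10 housekeeping genes 4 were higher and 3 lower (1 and 3 in the higher-scoring 50%). The 4 factors delivered as OSKM had nearly the same counts, with 6 and 5 at Pou5f1, 2 and 1 at Sox2, 2 and 2 at Klf4 and 2 and 2 at Myc.

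Markers of other lineages carried few peaks in either arm. The 6 primitive endoderm markers held 4 peaks with HDAC3-YF and 0 with FLAG, at Gata4 (2 and 0), Gata6 and Sox17 (1 and 0 each), and the 6 neural markers held 5 and 1, of which Sox1 had 3 and 0. The 4 germ cell markers held 5 and 2, and Ddx4, Sycp3 and Mael had end peaks with HDAC3-YF only, scoring 10.4, 8.26 and 8.11. Such ends made up 5.54% over all genes. The endothelial (2 and 4 peaks), immune (6 and 8), trophoblast (1 and 1) and muscle (3 and 4) markers had as many or fewer peaks with HDAC3-YF. None of the primitive endoderm, neural or germ cell markers differed in the 50% of peaks with the highest scores.

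Promoters acetylated with HDAC3-YF only were richer in CpG than those acetylated with FLAG only. The observed over expected CpG ratio had a median of 0.714 in 659 HDAC3-YF-only, 0.619 in 489 FLAG-only, 0.821 in 5418 promoters acetylated in both arms and 0.210 in 6971 acetylated in neither. A ratio of at least 0.6 was found in 65.6% (61.8 to 69.1), 52.97% (48.5 to 57.3), 84.8% and 14.2% of them, and in 46.3% of all. The AP-1 motif lay in 4.25% (2.96 to 6.07) of HDAC3-YF-only and 7.16% (5.19 to 9.79) of FLAG-only promoters, and the TATA box in 5.92% (4.36 to 7.99) and 9.61% (7.31 to 12.5). E-boxes were in 10.9% (8.77 to 13.5) and 8.59% (6.42 to 11.4), GC boxes in 65.7% and 62.6% and CCAAT boxes in 39.3% and 38.2%. For each of these 5 motifs the intervals of the 2 classes overlapped, which does not show that the classes were alike. Intervals of the differences were not computed for motifs. Of the promoters printed above, Cldn4 with 2 AP-1 motifs was unlike most of its class. The CpG ratios of these promoters did not separate the arms. They were 0.324 at Cldn4, 0.615 at Utf1, 0.780 at Spint1 and 0.353 at Cldn3. At Col1a2, Col6a2, Myl9 and Snai1 they were 0.470, 0.253, 0.583 and 0.925.

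The strongest peaks without a counterpart within 1 kb differed in position. Of the 10 highest-scoring HDAC3-YF-only peaks of this kind 8 lay within 1 kb of a gene end and 10 had an ESC peak within 1 kb. Of the 10 FLAG-only peaks 1 lay at a gene end and 3 had an ESC peak nearby. A MEF peak lay within 1 kb of 8 of the HDAC3-YF-only and 7 of the FLAG-only peaks. The highest HDAC3-YF peak (score 82.1, chr6:120666365-120666564) lay 150 bp inside an end of Cecr2, a chromatin remodelling gene, with a neighbour within 1 kb in ESCs and in day 9 HDAC3-YF cells and in no FLAG or MEF list. The peak at Slc35f2 (score 38.9, chr9:53771773-53771972) had the same pattern. Peaks at Exosc6 (67.3), Cyb561a3 (45.4), Samd8 (39.0), Peg12 (36.2), Dut (35.9) and Fam32a (35.1) were at gene ends and had a neighbour within 1 kb in every other H3K27ac list, so for these the day 13 FLAG list was the one without a peak. The highest FLAG-only peaks lay inside Ctbp2, a co-repressor gene (52.7, 35018 bp from an end), in Tmem219 (42.0) and in Nrp2, a semaphorin and VEGF co-receptor gene (40.3, 51281 bp from an end). A peak 94096 bp from Ets2 (40.2) had neighbours in MEFs and day 9 FLAG cells only. The peak of Osmr, the oncostatin M receptor gene (37.7, chr15:6874093-6874292), was the one at a gene end. Among gene ends with the highest-scoring arm-only peaks, Irf2bpl (184), Zbtb32 (91.4) and Utrn (77.3) with HDAC3-YF and Sec24b (87.9) and Sinhcaf (57.7) with FLAG had a peak of the other arm 202 to 352 bp away, so these calls rest on the edge of the 1 kb window.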

How the data were processed

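H3K27ac, NCoR and SMRT ChIP-seq gave 12 deposited peak lists for 13 libraries, 1 per group, grouped by their titles. Reads were aligned with Bowtie2 2.2.0 to mm10 and peaks called with MACS 1.4, per the submitters' processing notes, without settings. Each list was deposited by the authors as 200 bp intervals with a score of unstated scale; how all intervals got this width is not stated either.

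Overlaps, distances and counts were computed in Python 3.11.15 with numpy 2.4.6, pandas 2.3.3 and scipy 1.17.1, and the overlap and counting steps were tested on simulated data. Genes (21887, protein-coding) came from a RefSeq table of GRCm38.p6, which has mm10 coordinates; strand and promoter sequences came from a RefSeq promoter table for 17492 of them. Neighbouring genes can share peaks. All 269 genes of the 22 lists matched by symbol. The comparison and the lists were chosen with earlier results of these data known. Genes were named by rule: the 12 loci in each direction with the largest difference, up to 4 genes per list and direction, the genes at the 10 highest-scoring unshared peaks and gene ends of each arm, and the OSKM and complex genes; other list genes named by their arm-only gene ends or zero counts were chosen after their values were seen. Some of these genes are not reported here. Alternatives were equal list lengths, the top 50% by score, 50% overlap, centres within 1 kb, merging within 1 kb, 2.5 kb gene ends and 5 kb flanks. The input and the signal strength of reads were not analysed here.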

Additional observations from a re-analysis of the deposited data

Results flagged for a closer look

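At day 5, 4 contrasts between the unshared classes had the opposite sign to day 13; the difference between the days was not tested, and each day has 1 library per arm. HDAC3-YF-only minus FLAG-only shares at day 5 were -9.74 percentage points at gene ends (11.6 at day 13), -8.51 for overlap with ESC peaks (15.3 at day 13), -2.61 for day 9 NCoR or SMRT sites (1.52 at day 13) and -1.78 for ESC NCoR or SMRT sites (3.25 at day 13). Summed peaks of the fibroblast lists were 87 with HDAC3-YF and 71 with FLAG at day 5, and 58 and 84 at day 13. Those of the pluripotency lists were 30 and 34, then 40 and 28, and of the epithelial lists 48 and 50, then 61 and 55. At day 9 the order was that of day 13 (66 and 97, 40 and 34, 56 and 54). At day 5 the HDAC3-YF list was the longer one (16944 and 15645 peaks), and at day 13 the shorter (14251 and 15394).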

How the results depend on the processing

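Of 79 alternative values for 21 results, 35 stayed within the interval of the reported value (counts within 1.5 times), 41 moved and 3 took the opposite sign to a difference whose interval excluded 0. With 2 of the moved values, 5 in all had the opposite sign to the reported value. Differences are HDAC3-YF-only minus FLAG-only shares in percentage points. Where lists were cut by score, sharing was called anew between the cut lists. Unshared peaks of these settings can have a lower-scoring counterpart in the other arm. With the 14251 highest-scoring peaks of each list, 62.5% of both lists were shared, and the day 9 HDAC3-YF and FLAG differences were -2.73 and -10.5. With the top 50% of each list by score, 76.6% of HDAC3-YF and 70.9% of FLAG peaks were shared, and the differences were 20.6 at gene ends, 29.1 for ESC peaks, 10.2 for MEF peaks (opposite sign), 5.53 for ESC-only and -13.4 for MEF-only sites, 9.80 for day 9 HDAC3-YF (opposite sign), 2.41 for day 9 FLAG (opposite sign), 8.75 for day 9 and 8.10 for ESC co-repressor sites. Fewer peaks then enter, and 125 loci were higher and 288 lower by 2 or more, with 7 pluripotency genes higher and 1 lower, 2 epithelial genes lower and 14 fibroblast genes lower. Over all 21887 genes 1921 were then higher and 2352 lower by 1 or more. With an overlap of 50% of the interval, 46.5% and 43.1% were shared, and the differences were 9.69 at gene ends, 11.2 for ESC, 1.17 for MEF (opposite sign, interval including 0), 6.41 for ESC-only and -3.63 for MEF-only sites, 3.71 (opposite sign) and -1.54 for the day 9 HDAC3-YF and FLAG lists, and 1.72 for ESC co-repressor sites. With centres within 1 kb, 75.1% and 69.4% were shared, and the differences were 13.5, 17.4, -13.9, 11.6 and -19.7, then -10.4 and -21.4, and 5.97, in the same order. With 2.5 kb around gene ends the gene-end difference was 13.6. With flanks of 5 kb, 274 loci were higher and 429 lower. The cause of these shifts was not tested. The gene-end, ESC, ESC-only and MEF-only differences kept their sign in all settings run, and the counts of genes with arm-only ends stayed within 1.5 times of 1213 and 911. No paired analysis was possible because the day 13 comparison has 1 library per arm; a contrast of the arms with days 5, 9 and 13 as pairs was not run. Without read counts, a peak below the caller's threshold in 1 arm cannot be told from an absent one, and unshared peaks were mostly low-scoring. The numbers of unshared peaks and of differing loci are therefore tied to the unknown depth and threshold of each library.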
